A study of Mus musculus with 15 samples.

Results

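The 8 genes described here encode proteins that carry B vitamins and vitamin C across or away from the gut wall. They were chosen by name: Cubn, Amn and Tcn2 for cobalamin, Slc46a1 and Slc19a1 for folate, Slc19a3 for thiamine, Slc5a6 for biotin and pantothenate, and Slc23a1 for ascorbate. All 8 were found by symbol among the 17752 genes listed in any mouse. RNA had been sequenced from a piece of intestine, which the study's methods give as ileum, of 15 female C57BL/6 mice (C57BL/6JOlaHsd in the methods) in 3 groups of 5. The water group was gavaged with water. The low PAC and high PAC groups were gavaged with proanthocyanidins (PAC, polymers of flavan-3-ols) purified from grape, at 200 mg/kg. Gavage was given every 2 days over 10 days in all 3 groups, and the labels give an age of 8 weeks for every mouse. The labels speak of low and high molecular weight PAC, while the methods call the more polymerized fraction given to mice medium in its mean degree of polymerization. The group is called high PAC here. Each group is a set of whole-tissue samples from mice of 1 strain and sex, with 1 library per mouse. The question was whether either fraction changed the ileal level of these genes, and how a cobalamin receptor typical of the ileum stood beside a folate transporter typical of the upper small intestine.

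Cobalamin reaches the ileum bound to intrinsic factor, and the complex is taken up by cubam, a receptor made of cubilin (Cubn), which binds the ligand, and amnionless (Amn), which holds cubilin in the membrane and brings it to the cell surface. Transcobalamin (Tcn2) then carries cobalamin in the blood. Folate is absorbed mainly in the duodenum and upper jejunum by the proton-coupled folate transporter (Slc46a1), whereas the reduced folate carrier (Slc19a1) is found in most tissues. Slc19a3 carries thiamine, Slc5a6 is the sodium-dependent multivitamin transporter and Slc23a1 is a sodium-dependent ascorbate transporter of epithelia. Mice make their own ascorbate in the liver.

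The tissue carried markers of distal ileum. Fabp6, the ileal bile acid binding protein, lay between 4200 and 10600 FPKM (fragments scaled for gene length and sequencing depth), and Slc10a2, the ileal bile acid transporter, between 94.8 and 350 FPKM. Some genes listed as proximal small intestine markers were present too. Rbp2 lay between 200 and 421 FPKM and Fabp1 between 36.2 and 528, while Pdx1 was at most 0.09. Cubn and Amn are also kidney genes, but the 3 kidney tubule markers that were listed summed to at most 0.32 FPKM in any mouse. Of the large intestine markers, Car1 and Aqp8 were at most 0.1 and 0.04 FPKM, while Slc26a3 lay between 46.3 and 68.1 and Car4 between 72.9 and 145 FPKM. Between 15963086 and 17903886 expected counts were assigned per mouse. The library of high PAC mouse 3 stood apart. Its counts differed from those of its group with a chi-square of 67.8 to 89.5 per degree of freedom, against 13.1 to 43 for other pairs within a group, and its FPKM summed to 677075, against 502110 to 573980 in the other mice. Of 8 enterocyte genes 6 were lowest in this mouse. Its Sis (sucrase-isomaltase) was 201 FPKM, its Anpep (aminopeptidase N) 1220 FPKM and its Vil1 (villin) 500 FPKM, whereas Epcam (967 FPKM) and Fabp2 (3201 FPKM) lay within the range of the other mice. Values without this mouse are given beside the results that it moved most. In whole tissue, fewer cells of a type and less RNA per cell cannot be told apart.

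The sequences just upstream of the genes for both cubam subunits and for Slc46a1 are shown because the results below set these 3 genes side by side. Each run holds the 240 bases from 250 to 11 bases before the RefSeq transcription start, read 5′ to 3′ on the strand of the gene, from RefSeq for GRCm38.p6. Capitals mark any match to CAAAGT, the core of a hepatocyte nuclear factor 4 site.
Cubn, chr2:13491887-13492126, minus strand: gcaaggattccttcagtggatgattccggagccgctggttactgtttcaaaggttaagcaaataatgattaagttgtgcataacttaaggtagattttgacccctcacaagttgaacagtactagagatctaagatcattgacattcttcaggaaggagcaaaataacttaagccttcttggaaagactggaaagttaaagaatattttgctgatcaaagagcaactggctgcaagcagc
Amn, chr12:111270846-111271085, plus strand: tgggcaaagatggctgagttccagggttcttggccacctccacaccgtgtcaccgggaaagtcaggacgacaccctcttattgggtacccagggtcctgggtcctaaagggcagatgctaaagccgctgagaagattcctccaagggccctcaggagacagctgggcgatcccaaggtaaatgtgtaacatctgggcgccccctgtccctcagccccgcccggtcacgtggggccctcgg
Slc46a1, chr11:78465451-78465690, plus strand: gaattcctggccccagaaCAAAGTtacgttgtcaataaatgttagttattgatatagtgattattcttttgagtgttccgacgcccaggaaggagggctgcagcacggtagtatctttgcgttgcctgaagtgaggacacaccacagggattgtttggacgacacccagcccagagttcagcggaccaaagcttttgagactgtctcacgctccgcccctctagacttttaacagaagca

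The Cubn window was the most AT-rich of the 3. It held 39.6% G and C and 2 CpG dinucleotides, against medians of 52.1% and 5 over 32851 promoter windows of the same length, and 11.3% of those windows were lower in G and C. The Amn window held 61.2% G and C and 10 CpG, and the Slc46a1 window 48.3% and 9 CpG. Both strands were searched for 3 motifs of intestinal transcription factors. The hepatocyte nuclear factor 1 letters GTTAAT occurred in 6.26% of all windows. Those of the GATA factors, searched as AGATAA, occurred in 9.74%, and CAAAGT in 12.2%. The Slc46a1 window held the last of these once, starting 232 bases before the transcription start, and these letters were not found in the Cubn and Amn windows, nor were those of the other motifs. In the GENCODE annotation of GRCm38, Cubn (gene ID 65969) spans chr2:13276338-13491813 on the minus strand, Amn (93835) chr12:111271095-111276426 on the plus strand and Slc46a1 (52466) chr11:78465697-78472059 on the plus strand. Tcn2 (21452) spans chr11:3917192-3932159 and Slc19a1 (20509) chr10:77032241-77061002. Slc19a3 (80721) spans chr1:83012523-83038448 and Slc5a6 (330064) chr5:31036036-31048924.

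Levels per length differed widely between the genes, and the cobalamin genes were the highest. In the water group, the mean of Tcn2 was 229 ± 18.4 FPKM (SD, n = 5), that of Cubn 181 ± 21.4 and that of Amn 48.6 ± 8.33. These placed Tcn2 at rank 319, Cubn at rank 396 and Amn at rank 1595 of 17195 genes listed in that group. Slc5a6 followed with 18.1 ± 2.05 FPKM. The folate transporters Slc19a1 and Slc46a1 had means of 6.32 ± 0.501 and 5.86 ± 0.849 FPKM, Slc23a1 had 4.04 ± 2.44 and Slc19a3 0.148 ± 0.063. Each gene from Tcn2 down to Slc5a6 lay above the next in all 15 mice. The ranges of Slc19a1, Slc46a1 and Slc23a1 overlapped in the water group, so their order was not beyond the spread, although Slc19a1 was above Slc46a1 in 13 of 15 mice and Slc46a1 above Slc23a1 in 13 of 15. Slc19a3 was the lowest in every mouse, with 3 to 13 expected counts.

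The genes also differed in how much mice varied. The highest of the 15 mice was 1.47 times the lowest for Slc46a1 and for Slc19a1, 1.52 times for Tcn2, 1.65 times for Amn and 1.71 times for Slc5a6. Cubn spanned 4.24 times because of 1 mouse, and Slc19a3 spanned 4.33 times at very low counts. Slc23a1 spanned 23.1 times, from 0.29 to 6.7 FPKM, with mice spread along the whole range.

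**Figure D1:**
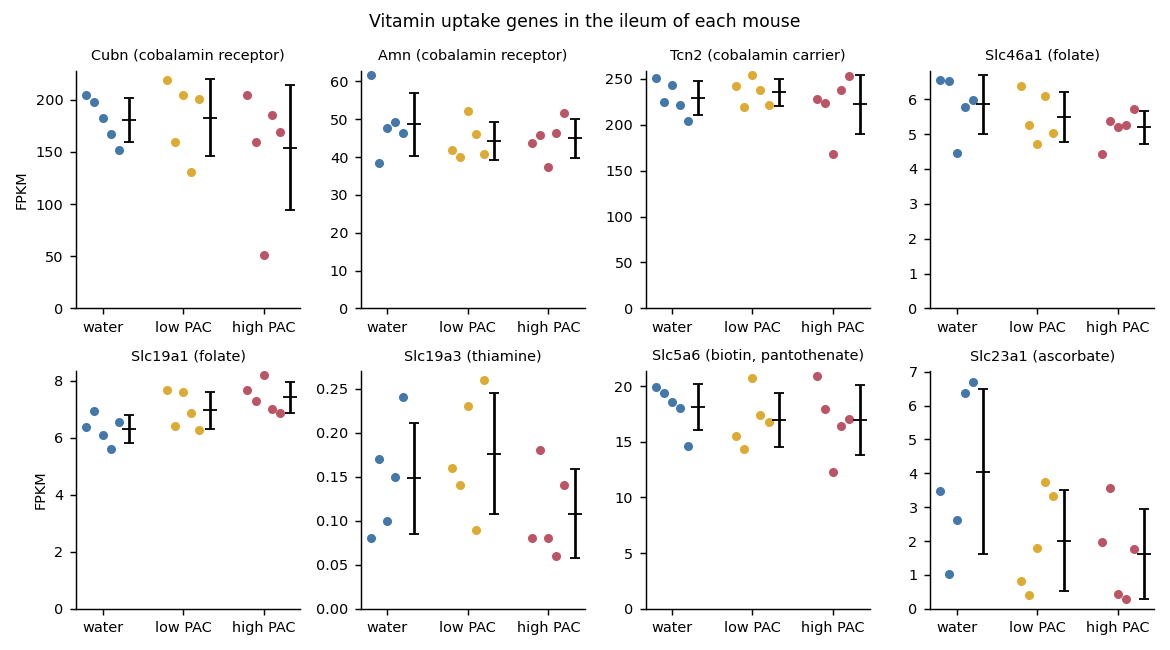
FPKM (y axis, linear, from 0) of the 8 vitamin uptake genes in each mouse of the water, low PAC and high PAC groups, with 1 point per mouse and the group mean ± SD (n = 5) beside the points. The groups overlap in all 8 panels, high PAC mouse 3 is the single low Cubn point at 51.7 FPKM, and Slc23a1 spreads from 0.29 to 6.7 FPKM.

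Cubn, the ligand-binding part of the cobalamin receptor, was similar in most mice of all groups. Its values in the water mice were 204, 198, 182, 168 and 152 FPKM. The low PAC mice had 219, 159, 205, 131 and 200 FPKM. The high PAC mice had 205, 160, 51.7, 185 and 169 FPKM. Thus 4 of 5 high PAC mice lay within or just above the range of the water group, and mouse 3 lay at less than any other mouse. The log2 fold change of high PAC against water was -0.33 (SE 0.27, edgeR Benjamini-Hochberg adjusted p = 0.551, 95% interval -0.89 to 0.24). It was -0.07 without high PAC mouse 3 (edgeR adjusted p = 0.869). For low PAC against water it was -0.04 (interval -0.61 to 0.52).

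Amn, the membrane anchor of the same receptor, did not share the fall in that mouse to the same extent. The water mice had 61.6, 38.5, 47.6, 49.2 and 46.3 FPKM, the low PAC mice 41.9, 40, 52.2, 46.1 and 40.7, and the high PAC mice 43.8, 45.8, 37.3, 46.2 and 51.7. The groups overlapped throughout, with high PAC mouse 3 the only high PAC mouse below the lowest water mouse. In edgeR the log2 fold change was -0.21 (SE 0.12, interval -0.48 to 0.05) for high PAC against water and -0.20 (interval -0.46 to 0.07) for low PAC against water, with edgeR adjusted p of 0.421 and 0.976. Without high PAC mouse 3 the former was -0.11.

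Tcn2, the carrier of absorbed cobalamin in blood, was among the steadiest of the 8 genes. The water mice had 251, 224, 243, 221 and 204 FPKM, the low PAC mice 242, 220, 254, 238 and 221, and the high PAC mice 228, 224, 168, 238 and 253. High PAC mouse 3 was again the lowest of all 15, and the other mice overlapped between groups. For high PAC against water the log2 fold change was -0.14 (SE 0.11, interval -0.37 to 0.09, edgeR adjusted p = 0.525), and -0.01 without that mouse. For low PAC against water it was -0.02 (interval -0.25 to 0.21), a sign that changed with the normalization.

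Slc46a1, the folate transporter of the upper small intestine, had 144 to 219 expected counts per mouse. In the water group it ranked 8064 of 17195 listed genes, with 46.9% of them above it. The water mice had 6.54, 6.52, 4.46, 5.77 and 5.99 FPKM. The low PAC mice had 6.38, 5.25, 4.71, 6.1 and 5.04 FPKM. The high PAC mice had 4.44, 5.37, 5.2, 5.25 and 5.71 FPKM. The groups overlapped, and all high PAC mice lay below the mean of the water group. The log2 fold change of high PAC against water was -0.27 (SE 0.12, interval -0.52 to -0.01), and -0.23 without high PAC mouse 3 (edgeR adjusted p = 0.506). Its edgeR p was 0.0415 before and 0.319 after adjustment over 14386 genes, and the exact permutation test of log2(FPKM + 0.1) gave p = 0.206 (two-sided, 252 splits, smallest possible p 0.0079). The exact p-values of the 8 genes in 3 comparisons are not adjusted for their number. For low PAC against water the log2 fold change was -0.15 (interval -0.40 to 0.11).

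Slc19a1, the reduced folate carrier, was the 1 member that lay higher in the high PAC group. Its values were 6.39, 6.94, 6.11, 5.6 and 6.55 FPKM in the water mice, 7.67, 6.42, 7.6, 6.87 and 6.26 in the low PAC mice and 7.69, 7.31, 8.22, 7.02 and 6.88 in the high PAC mice. Of the 5 high PAC mice, 4 were above the highest water mouse. On the log2(FPKM + 0.1) scale the difference was 0.23 (exact permutation p = 0.0159, two-sided), and 0.19 without high PAC mouse 3 (exact permutation p = 0.0238). With the TMM scaling of edgeR, which sets libraries to the bulk of their genes, the log2 fold change was 0.13 (SE 0.08, interval -0.05 to 0.31, adjusted p = 0.452), and the exact permutation test of TMM-scaled log2 values gave 0.13 with p = 0.0714. The TMM factors were 1.007 to 1.055 in the high PAC mice and 0.935 to 1.012 in the water mice. For low PAC against water the log2 fold change was 0.08 (interval -0.10 to 0.26).

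Slc5a6, which carries biotin and pantothenate, showed no group pattern. The water mice had 19.9, 19.4, 18.5, 18 and 14.7 FPKM, the low PAC mice 15.5, 14.3, 20.7, 17.4 and 16.8, and the high PAC mice 20.9, 18, 12.2, 16.4 and 17.1. The lowest value was again that of high PAC mouse 3. Its log2 fold change was -0.20 (SE 0.13, interval -0.48 to 0.09, edgeR adjusted p = 0.483) for high PAC and -0.16 (interval -0.44 to 0.13, edgeR adjusted p = 0.976) for low PAC against water, and the former was -0.06 without that mouse.

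Slc19a3, a thiamine transporter, was too low for the fit. It was listed at 0.08, 0.17, 0.1, 0.15 and 0.24 FPKM in the water mice, at 0.16, 0.14, 0.23, 0.09 and 0.26 in the low PAC mice and at 0.08, 0.18, 0.08, 0.06 and 0.14 in the high PAC mice. These values overlapped, and the exact permutation p was 0.27 for high PAC and 0.548 for low PAC against water. No difference was detectable at 3 to 13 counts per mouse.

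Slc23a1, the ascorbate transporter, had the largest differences and the largest spread. Its values were 3.49, 1.04, 2.62, 6.37 and 6.7 FPKM in the water mice, or 50 to 344 expected counts. They were 0.82, 0.4, 1.78, 3.74 and 3.33 FPKM in the low PAC mice and 1.97, 3.56, 0.44, 0.29 and 1.76 FPKM in the high PAC mice. In each PAC group 2 mice lay below the lowest water mouse and the other 3 within the water range. The log2 fold change of high PAC against water was -1.42 (SE 0.66, interval -2.83 to -0.02), with an edgeR p of 0.0477 before and 0.333 after adjustment and an exact permutation p of 0.103. For low PAC against water it was -1.07 (SE 0.65, interval -2.45 to 0.32, edgeR adjusted p = 0.976, exact permutation p = 0.175). Without high PAC mouse 3 the high PAC value was -1.15 (edgeR adjusted p = 0.525).

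Counted over the 7 genes that passed the filter on low counts, 0 had an edgeR adjusted p under 0.05 in high PAC against water, where 0.0139% of all 14386 genes tested did. DESeq2 and limma also called 0 of 7, and 0.779% and 0.0626% of all genes. Slc46a1 and Slc23a1 passed an unadjusted p under 0.05, both lower, that is 2 of 7 against 14.8% of all genes. It was 0 of 7 against 10.9% without high PAC mouse 3, and 0 of 7 against 14.9% with DESeq2. With upper-quartile scaling and with limma the gene past that p was Slc19a1 alone, and it was higher (log2 fold change 0.20 and 0.23), so which genes passed, and their direction, depended on the scaling and the tool. None of the 7 had high PAC and water mice that did not overlap in FPKM, against 4.64% of all genes. The log2 fold change was below 0 for 6 of 7, with a median of -0.21 (-0.07 without high PAC mouse 3), while the median of all genes was 0.002. The count of lower genes was 6 under each normalization tried. Set against the enterocyte markers of the same library instead, a scale added after the data had been seen, 6 of all 8 genes were higher in high PAC, since those markers themselves were lower.

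In low PAC against water, 0 of 7 genes passed the adjusted threshold, as did 0.0% of all genes, and DESeq2 and limma called 0 of 7 and 0.0139% and 0.0% of all genes. At an unadjusted p under 0.05 there were 0 of 7, against 3.61% of all genes, and 0 of 7 had groups that did not overlap, against 0.605%. In low PAC too the log2 fold change was below 0 for 6 of 7 genes, with a median of -0.15 (all genes -0.014). It was below 0 for 5 with DESeq2 and for 4 with limma. High PAC against low PAC sets 2 fractions of grape PAC that differ in degree of polymerization side by side at the same dose and schedule. Again 0 of 7 passed the adjusted threshold in edgeR, DESeq2 and limma (0.0% of all genes in each), 0 of 7 the unadjusted one (3.89%) and 0 of 7 did not overlap (0.737%). The log2 difference of high from low PAC was -0.28 for Cubn (interval -0.85 to 0.28), -0.12 for Slc46a1 (-0.37 to 0.14), 0.05 for Slc19a1 (-0.13 to 0.23) and -0.35 for Slc23a1 (-1.77 to 1.06). The Cubn value includes high PAC mouse 3, at 51.7 FPKM. The difference was below 0 for 6 of the 7 genes (median -0.12), and for 4 without that mouse (median -0.02). The smallest edgeR adjusted p among the 7 was 0.896. These intervals leave room for differences in either direction. Both comparisons with water use the same 5 water mice.

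**Figure D2:**
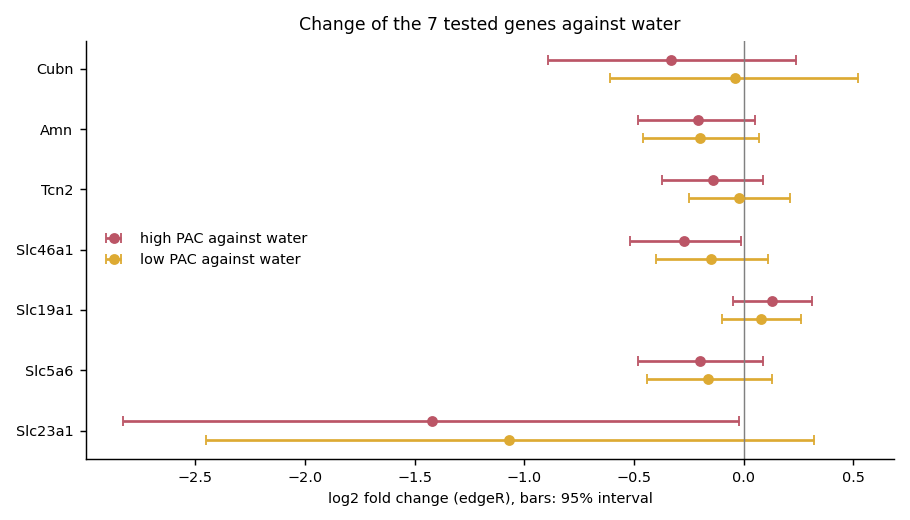
Log2 fold change by edgeR (x axis) of the 7 tested genes for high PAC against water and low PAC against water, with bars for the 95% interval and a grey line at 0. The intervals of Slc46a1 and Slc23a1 in high PAC end at -0.01 and -0.02, all others cross 0, and those of Slc23a1 are the widest.

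Within each mouse, the ileal cobalamin receptor stood far above the folate transporter of the upper small intestine. Cubn was between 25 and 40 times Slc46a1 in the water mice, between 21.2 and 42.6 times in the low PAC mice and between 29.2 and 45.1 times in 4 of the high PAC mice, on the FPKM + 0.1 scale. High PAC mouse 3 had 9.77 times. The mean log2 ratio of Slc46a1 to Cubn was -4.93 ± 0.25 in water, -5.02 ± 0.4 in low PAC and -4.73 ± 0.84 in high PAC (SD, n = 5 each, exact permutation p = 0.802 for high PAC against water, 0.698 for low PAC against water and 0.611 for high against low PAC). The difference of high PAC from water was 0.20, and -0.16 without high PAC mouse 3 (exact permutation p = 0.405), so its sign rested on that mouse. The log2 ratio of Amn to Cubn, the cubam subunits, was -1.9 ± 0.27 in water and -1.64 ± 0.68 in high PAC. The difference of 0.26 (exact permutation p = 0.587) became -0.03 without the same mouse.

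**Figure D3:**
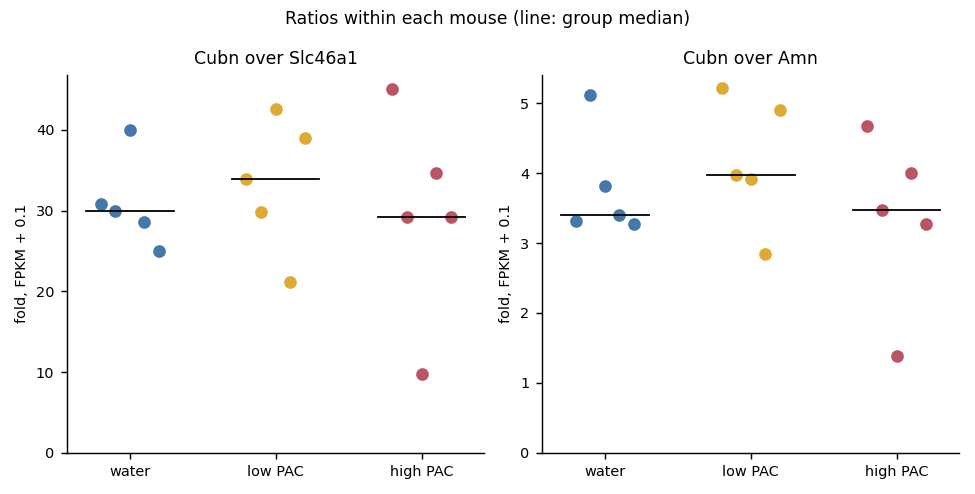
Cubn over Slc46a1 and Cubn over Amn within each mouse (y axes, fold of FPKM + 0.1, linear, from 0), with 1 point per mouse and a line at each group median. Cubn is 21.2 to 45.1 times Slc46a1 in 14 of the mice and 9.77 times in high PAC mouse 3.

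Over the pieces of ileum, Slc23a1 followed a score of proximal less distal markers, whereas Slc46a1 and Cubn did not. The markers of each list did not all vary together. A position score was taken as the mean centred log2 level of 11 proximal small intestine genes less that of 8 distal ileum genes. With group means subtracted, Slc23a1 rose with the score over the 15 mice (Pearson r = 0.77, permutation p = 0.0011, adjusted over 8 genes p = 0.0086). Spearman's rho was 0.80 (permutation p = 0.00042, adjusted p = 0.0034), and r was 0.77 again when the 2 mice with the most extreme scores were left out. Slc19a3 had r = 0.73 (permutation p = 0.005, adjusted p = 0.02) and rho = 0.67 (permutation p = 0.014, adjusted p = 0.055), and r fell to 0.59 without 2 mice. This rests on 3 to 13 counts per mouse, and its adjusted p was 0.063 to 0.09 without water mouse 5, low PAC mouse 5 or high PAC mouse 2. The other 6 genes had r between -0.20 and 0.20, with 0.01 for Cubn and -0.04 for Slc46a1 (permutation p = 0.96 and 0.92).

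The relation of Slc23a1 was carried by some of the listed genes and not by others. Of the 11 proximal genes, 5 had r over 0.5 with it, among them Lct (lactase, 0.91), Rbp2 (a cellular retinol-binding protein, 0.87) and Gata4 (a transcription factor of the upper small intestine, 0.76). Slc40a1, the iron exporter ferroportin, ran the other way with r = -0.96, and Cybrd1, a duodenal ferric reductase, had 0.16. Pdx1 and Onecut2 were at most 0.09 FPKM. Of the 8 distal genes 1, Fabp6, had r under -0.5 (-0.58). With the distal list alone the r of Slc23a1 was -0.39 (permutation p adjusted over 8 genes = 0.54). All FPKM of a mouse come from 1 library and share its scaling.

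Of the proximal list, the distal list and the position score, 1 differed from water past an exact permutation p of 0.05, the proximal list in high PAC. It was lower in high PAC than in water by 0.64 on the log2 scale (group difference -0.64, exact permutation p = 0.0159), while its difference in low PAC was -0.49 (p = 0.103 by the same exact test). Gata4 is in this list, and the study reports it as lower in these same mice. The p of the list is therefore not independent of that result. The distal list differed by 0.11 in high PAC and 0.15 in low PAC (exact permutation p = 0.532 and 0.437), and the position score by -0.75 and -0.64 (exact permutation p = 0.0556 and 0.111). The summed level of the proximal list was 791 to 1600 FPKM in water, 477 to 1160 in low PAC and 740 to 1090 in high PAC. Gata4 lay between 1.69 and 12.7 FPKM in water and between 0.39 and 4.23 in high PAC, and Lct between 15.2 and 92.7 and between 2.68 and 52.8. Other genes of the list did not move that way: the mean of Fabp1 was 212 FPKM in water and 307 in high PAC, that of Slc40a1 14.6 and 20.2, and that of Cybrd1 3.05 in both. Without high PAC mouse 3 the difference of the list was -0.60 (exact permutation p = 0.0397). The part of these markers in the group difference of Slc23a1 was not tested.

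The relation of the 8 genes to markers of absorptive cells was examined after the data had been seen, and 0 of 8 passed the adjusted threshold. Against a score of 8 enterocyte genes, with group means subtracted, Cubn had r = 0.91 (permutation p = 0.019, adjusted over 8 genes p = 0.06), Tcn2 0.83 (adjusted p = 0.06 by the same permutation test), Slc5a6 0.71 (0.06) and Amn 0.54 (0.066). Spearman's rho was 0.71, 0.59, 0.50 and 0.47 (permutation p adjusted to 0.12 in each case). These values rested on high PAC mouse 3, whose enterocyte score was -0.79 while the other mice lay between -0.14 and 0.27. Without it r was 0.46 for Cubn, 0.40 for Tcn2, 0.41 for Slc5a6 and 0.38 for Amn (permutation p adjusted to 0.35 for each). Slc46a1 had r = -0.16 and Slc19a1 -0.45, with permutation p adjusted to 0.5 and 0.12.

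The enterocyte score itself was lower in high PAC than in water by 0.34 (group difference -0.34, exact permutation p = 0.00794, the smallest the design allows), with a summed level of 7090 to 12100 FPKM in high PAC, 9470 to 12900 in low PAC and 11400 to 14300 in water. Without high PAC mouse 3 the difference was -0.18 (exact permutation p = 0.0238). A score of 6 crypt and proliferation genes was higher by 0.30 (exact permutation p = 0.0238), and by 0.23 without that mouse (exact permutation p = 0.0556). The genes were also set relative to the enterocyte list of the same library, a scale added after the data had been seen. A fall of the list raises every value on this scale. Tcn2 was higher on it in high PAC than in water by 0.28 and Slc19a1 by 0.57 (exact permutation p = 0.00794 for each, not adjusted). By log2(FPKM + 0.1) alone, Tcn2 differed by -0.05 and Slc19a1 by 0.23 (exact permutation p = 0.738 and 0.0159). Relative to the list, Tcn2 and Slc19a1 were higher in low PAC than in water by 0.21 and 0.30 (exact permutation p = 0.0317 and 0.0397). There the enterocyte score differed by -0.17 (exact permutation p = 0.0556). By log2(FPKM + 0.1) alone the 2 genes differed by 0.04 and 0.14 in low PAC (exact permutation p = 0.587 and 0.135). Relative to the list, Cubn differed in high PAC by -0.03 (p = 0.944 by exact test) and Slc23a1 by -1.14 (p = 0.151 by exact test). On this relative scale the high PAC differences without mouse 3 were 0.23 for Tcn2, 0.38 for Slc19a1 and -0.99 for Slc23a1, while Cubn turned to 0.18 (exact permutation p = 0.00794, 0.0159, 0.278 and 0.198). The part of cell composition in these values was not tested.

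**Figure D4:**
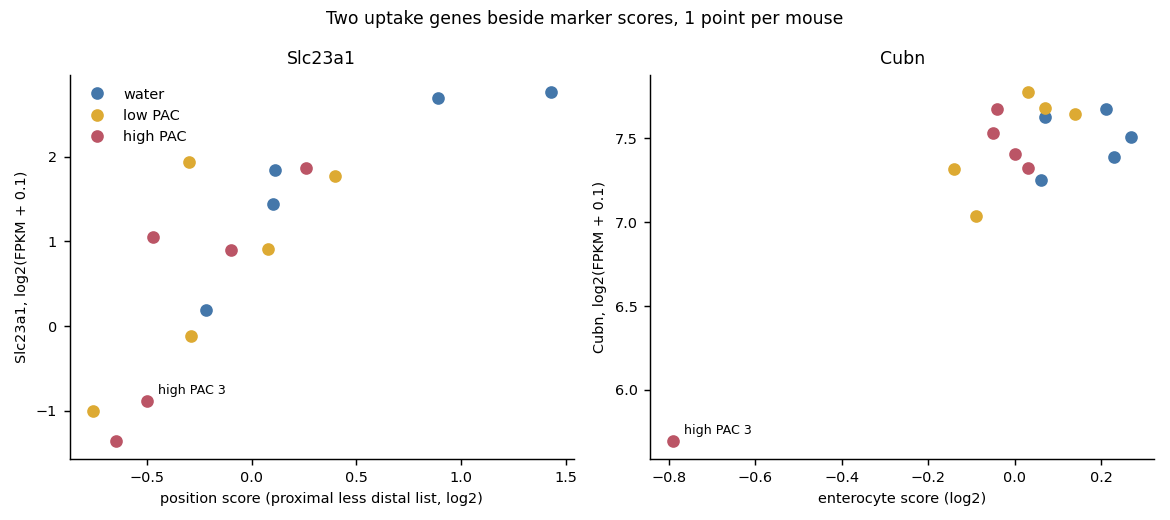
Slc23a1 against the position score and Cubn against the enterocyte score, both axes on the log2 scale, with 1 point per mouse coloured by group and high PAC mouse 3 named. Slc23a1 is higher in mice with a higher score (r = 0.77 with group means subtracted), whereas the relation of Cubn (r = 0.91) falls to 0.46 without the mouse at a score of -0.79.

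Among the 28 pairs of the 8 genes, 0 had a permutation p under 0.05 after adjustment over the pairs. The highest r, with group means subtracted, were 0.82 for Tcn2 with Cubn, 0.75 for Slc5a6 with Tcn2, 0.72 for Slc5a6 with Cubn and 0.71 for Tcn2 with Amn (adjusted permutation p = 0.15, 0.13, 0.15 and 0.10). Without high PAC mouse 3 they were 0.37, 0.52, 0.43 and 0.68. The cubam subunits Amn and Cubn had r = 0.40 (permutation p = 0.14, adjusted p = 0.58), and the folate transporters Slc19a1 and Slc46a1 had r = 0.17 (permutation p = 0.58, adjusted p = 0.99).

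The genes whose levels over the 15 mice were most like each member were listed, as a description, from 12172 genes with a mean of at least 1 FPKM. For Slc23a1 they were Slc28a1, a nucleoside transporter (r = 0.962), Slc6a4, the serotonin transporter (0.961), and Tm4sf5 (0.954). Slc28a1 ranged from 0.22 to 5.43 FPKM. For Cubn they were Parp4 (0.975), Ubxn2a (0.957) and Cdh11 (0.955), which fell to 0.834, 0.718 and 0.813 without high PAC mouse 3. For Amn they were Mib2 (0.893), Adap1 (0.891) and Klc4 (0.838), and for Tcn2 Plekhg6 (0.954), Naaladl1 (0.953) and Mapre3 (0.942), the last 3 at 0.862, 0.863 and 0.831 without that mouse. Slc19a1 was most like Stard5 (0.895), Pttg1 (0.868) and Cog8 (0.851), and Slc5a6 most like Slc16a5 (0.867), P2ry2 (0.864) and Ggt1 (0.843), which were 0.774, 0.771 and 0.722 without it. The likeness was weakest for Slc46a1, with Fv1 (0.809), Ints3 (0.686) and Zdhhc24 (0.681), and for Slc19a3, with Cybrd1 (0.775), Als2cr12 (0.77) and Cul7 (0.769).

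The other genes of the same vitamin pathways were taken from 5 lists of 73 genes, of which 67 could be tested. None had an edgeR adjusted p under 0.05 in any comparison, nor in DESeq2 or limma for either PAC group against water. In high PAC against water 9 passed an unadjusted p under 0.05, 1 higher and 8 lower, which is 13.4% of the 67 against 14.8% of all genes tested, of which 628 were higher and 1500 lower (1505 and 816 with upper-quartile scaling). The median log2 fold change was -0.02. In low PAC against water 2 were higher and 1 lower, or 4.48% against 3.61% of all genes, with a median of -0.03. Of the 13 cobalamin genes tested, 8 were above and 5 below 0 in high PAC (median 0.07). Mmadhc, which directs cobalamin inside the cell, was the highest in water at 25.2 ± 2.22 FPKM and had a log2 fold change of 0.07. Lrp2 (megalin, an endocytic partner of cubilin in the kidney) had 1.37 with an edgeR p of 0.0496, adjusted to 0.337, at levels of 0.00 to 0.07 FPKM.

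Of the 17 folate genes tested, 3 were lower at an unadjusted p under 0.05 in high PAC and 0 higher (17.6% against 14.8% of all genes). Abcg2, an efflux pump that also carries folate, was the highest at 134 ± 39.4 FPKM in water with a log2 fold change of -0.12. Abcc3, an efflux pump of the basolateral membrane, had -0.37 (SE 0.14, edgeR adjusted p = 0.269). Of the 13 thiamine, riboflavin and pyridoxine genes 2 were lower by the same measure (15.4%, against the same 14.8%). Rfk (riboflavin kinase) was the highest of these at 424 ± 36.6 FPKM in water and 362 ± 51 in high PAC, with -0.32 (SE 0.11, edgeR adjusted p = 0.252). The second was Alpi, intestinal alkaline phosphatase, which is also in the enterocyte list.

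Of the 15 biotin and pantothenate genes, 2 were lower in high PAC (13.3% against 14.8% of all genes). Vnn1, a pantetheinase that releases pantothenate, was 139 ± 22.2 FPKM in water, 112 ± 29.6 in low PAC and 111 ± 19.7 in high PAC, with log2 fold changes of -0.41 (edgeR adjusted p = 0.299) in high PAC and -0.37 (edgeR adjusted p = 0.976) in low PAC. Of the 9 ascorbate genes tested 1 was lower (11.1% against 14.8%), Cyb5r3 (a cytochrome b5 reductase) with -0.35 (edgeR adjusted p = 0.331). Gsto1, which can reduce dehydroascorbate, was the highest at 270 ± 10.1 FPKM in water with 0.02.

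**Figure D5:**
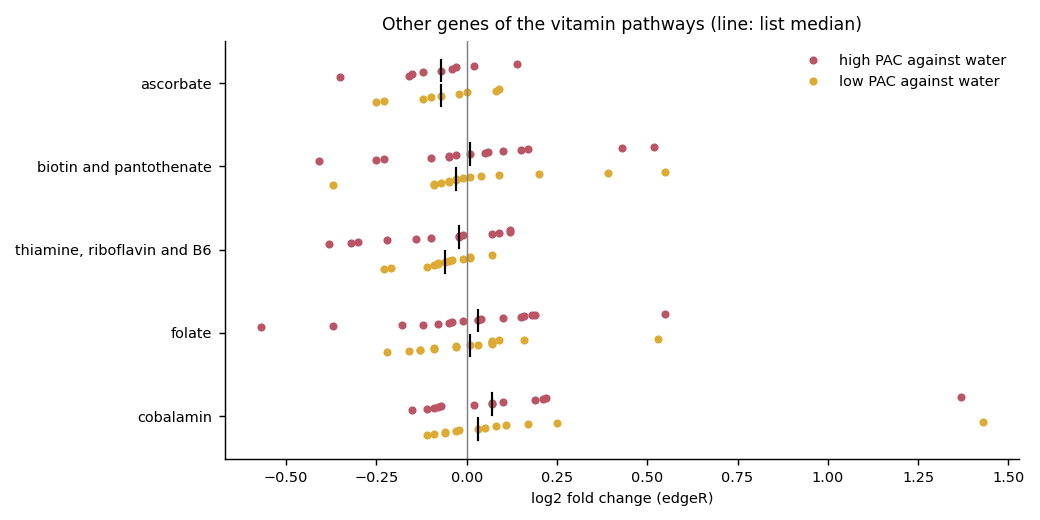
Log2 fold change by edgeR (x axis) of the 67 tested genes of 5 vitamin pathway lists (rows) for high PAC against water and low PAC against water, with 1 point per gene and a line at each list median. List medians lie between -0.07 and 0.07, and the points farthest to the right are Lrp2 at 1.37 and 1.43, a gene at no more than 0.07 FPKM.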

How the data were processed

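Total RNA was extracted from a piece of ileum per mouse and sequenced as paired reads on the BGISEQ-500. Per the methods, the authors cleaned reads with SOAPnuke and mapped them to mm10 with Bowtie2. The processing notes in the labels name HISAT and DESeq2 without a role, and the tool that counted reads is not given in the sources used here. The authors deposited an expected count per gene, an estimate that is not normalized and need not be whole, and an FPKM value, which scales fragments by gene length and library. A gene missing from a mouse's list was given 0. Expected counts of 15963086 to 17903886 per mouse leave little counting error for Cubn and Tcn2, and much for Slc19a3 and the lowest Slc23a1 values.

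Expected counts were rounded and fitted with edgeR 4.0.16 in R 4.3.3 (TMM, quasi-likelihood test, filterByExpr, 14386 genes, 3 groups in 1 model, Benjamini-Hochberg over all genes). The standard error came from the test statistic. Single genes, ratios and scores were compared by two-sided exact permutation tests over 252 splits of log2(FPKM + 0.1) with scipy 1.17.1. Correlations used 100000 permutations within groups. DESeq2 1.42.0 (its filter on mean counts off) and limma 3.58.1 on log2(FPKM + 0.1) were alternatives, as were other normalizations, no filter, a pseudocount of 1, a block for the replicate number and leaving out each mouse. A score is the mean centred log2(FPKM + 0.1) of a list. Of 12 marker lists, those for B cells, smooth muscle, endothelium, macrophages, mesothelium, pancreas, kidney and large intestine had exact permutation p between 0.167 and 0.984 for high PAC against water. Of these, mesothelium differed by 1.33, smooth muscle by 0.71 and B cells by -0.41, and the others by -0.08 to 0.09. Without high PAC mouse 3, mesothelium, smooth muscle and B cells differed by 1.65, 0.82 and -1.14 (exact permutation p = 0.103, 0.159 and 0.508). In low PAC against water, mesothelium differed by 1.18, smooth muscle by 0.54 and B cells by -1.0 (exact permutation p = 0.198, 0.302 and 0.389), and pancreas (mainly Cela1, at most 2.84 FPKM) and large intestine differed by -0.14 and -0.12 (exact permutation p = 0.0397 and 0.0317).

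The text names all 8 members, the highest and the smallest-p gene of each pathway list, and the 3 genes most like each member. Other named genes were picked after their values were seen. The values of 1 listed marker gene are not reported here. Members and lists were chosen with earlier results of these data known. The scripts were tested on simulated counts. The NOISeq analysis of the study was not repeated. The labels name no batch and do not say whether mice shared a cage.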

Additional observations from a re-analysis of the deposited data

Results flagged for a closer look

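The log2 ratio of Slc46a1 to Cubn in high PAC mouse 3 was -3.29, far above the other 4 mice of its group. The gap to the nearest of them was 0.715 of the whole range of the group, against a Dixon critical value of 0.71 for 5 samples. Chance alone marks about 1 in 20 groups in this way, and 30 groups of values were examined. In the same mouse Cubn was 51.7 FPKM, Slc46a1 5.2 FPKM and the enterocyte score -0.79, and the part of the enterocyte markers in the ratio was not tested.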

How the results depend on the processing

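No member passed an adjusted p of 0.05 under any alternative, nor did a pathway gene in the 2 comparisons with water, the only ones repeated for the pathways. The count of members with an unadjusted p under 0.05 in high PAC, 2 in the report (Slc46a1 and Slc23a1, lower), was 0 with RLE size factors, with DESeq2 and with the replicate block, 1 with upper-quartile scaling and with limma (Slc19a1, higher), 1 without the filter and with only the 2 groups (Slc23a1, lower), and 0 to 2 without 1 mouse (0 without water mouse 1 or 4 or high PAC mouse 1, 3 or 4). Without water mouse 2 the genes were Slc23a1 and Amn, and without water mouse 5 Slc5a6, all lower. The count of 9 pathway genes was 3 to 12 without 1 mouse in turn (3 without water mouse 1, 5 without water mouse 3 or high PAC mouse 3). In low PAC the count of 0 members was 0 to 1 (1 without water mouse 2, Amn) and that of 3 pathway genes 0 to 4 without 1 mouse (0 without water mouse 1 or 3, 1 without low PAC mouse 1, 2 or 4 or high PAC mouse 2), and 1 with the replicate block. The deviations of mice with the same number had r of -0.22 to 0.41 for high PAC with water, over 0.1 in 3 of 5 pairs (mean 0.12, against -0.03 for other numbers), and r over 0.1 in 2 of 5 pairs for low PAC with water. Since not every pair was over 0.1 and the labels give the numbers no meaning, they were not taken as pairs.

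Among all genes, 628 were higher and 1500 lower at an unadjusted p under 0.05 in high PAC, 1505 and 816 with upper-quartile scaling. DESeq2 called 112 genes over all at the adjusted threshold, 32 higher and 80 lower, where edgeR called 2.

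Without 1 mouse the difference in the Slc46a1 to Cubn ratio ran from -0.16 to 0.39 for high PAC against water, -0.24 to 0.01 for low PAC against water (0.01 without low PAC mouse 3) and -0.07 to 0.48 for high against low PAC (-0.07 without high PAC mouse 3), and the Amn to Cubn ratio from -0.03 to 0.41. The log2 fold change of Cubn in low PAC turned to 0.00 with limma and ran from -0.11 to 0.06 without single mice (0.02 without water mouse 1, 0.06 without low PAC mouse 4), and its FPKM difference to -0.06 with TMM scaling. That of Tcn2 in low PAC turned to 0.00 with RLE, without the filter, with DESeq2 and with only the 2 groups, 0.02 with upper-quartile scaling, 0.04 with limma and ran from -0.07 to 0.03 without single mice (0.03 without water mouse 1, 0.01 without water mouse 3, low PAC mouse 5 or high PAC mouse 3), and its FPKM difference to -0.01 with TMM scaling. Relative to the enterocyte list (added after seeing the data), high PAC differences turned to 0.23 for Amn, 0.28 for Tcn2, 0.18 for Slc46a1, 0.09 for Slc19a3 and 0.23 for Slc5a6, and low PAC ones to 0.04 for Amn, 0.08 for Slc46a1 and 0.07 for Slc5a6. Without high PAC mouse 3 the high PAC values were 0.14 for Amn, 0.23 for Tcn2, 0.02 for Slc46a1, -0.02 for Slc19a3 and 0.18 for Slc5a6.

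The count of 2 genes that followed the position score was 1 with group means kept, 1 with the proximal list alone, 0 with the distal list alone and 1 to 2 without 1 mouse. The count of 0 that followed the enterocyte score was 5 with group means kept and 0 to 3 without 1 mouse (3 without low PAC mouse 5). The count of 0 pairs was 0 to 1 (1 without water mouse 2 or 5). The causes were not tested.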
